A study of Mus musculus with 4 samples.

Results

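The genes described here are a group of 10 imprinted genes with roles in fetal growth, *Igf2*, *H19*, *Dlk1*, *Mest*, *Peg3*, *Plagl1*, *Grb10*, *Igf2r*, *Ndn* and *Sgce* given by name. A gene counted as measured where a probe set carried its symbol and no other, and this held for 9 of the 10 genes, out of 19938 genes measured on the arrays. *H19* had no such probe set and was not analysed here. Each of the 9 measured genes had 1 probe set.

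The samples were embryonic lung of C57BL/6 mice at embryonic day 18.5. There were 2 *Hmga2*-/- samples (KO), in which, by their label, both copies of the gene for the chromatin protein HMGA2 are knocked out in the whole animal, and 2 *Hmga2*+/+ samples (WT). Total RNA of each sample was hybridised to 1 Affymetrix array, and the values are log2 signals on which a difference of 1 is a factor of 2. The samples are labelled as biological replicates, but nothing says whether they came from separate litters or pooled embryos, so the p values measure only the spread between these 4 arrays. Both WT titles also carry the name WT1, while the KO titles read KO1 and KO2, so separate WT embryos are not certain.

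In an imprinted gene, the copy inherited from 1 parent is active and the other is silent, a state set by DNA methylation that the germ line lays down. Genes active on the paternal copy tend to promote growth of the fetus, and several genes active on the maternal copy restrain it. *Igf2* is the best known paternally expressed one, a secreted insulin-like growth factor that acts through the IGF1 and insulin receptors and is made mostly by mesenchymal cells of fetal organs. Its maternally expressed neighbour *H19* makes a noncoding RNA from the same domain. The arrays measured the RNA of both copies together and do not tell them apart.

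Before the comparison, the labels and the tissue were checked. The *Hmga2* probe set had log2 values of 9.65 and 9.39 in the arrays labelled KO, against 9.35 and 9.59 in the WT arrays, a difference of 0.051 (standard error 0.16, limma adjusted p = 0.892). Where this probe set lies relative to the deletion is unknown, which leaves the genotype labels unchecked, and the arrays are called by their labels throughout. Of the lung markers, *Sftpc*, a surfactant protein, had 13.97 and 14.01 in the arrays labelled KO and 14.13 and 14.05 in the WT arrays. *Nkx2-1*, the transcription factor that defines lung epithelium, had 11.46 and 11.47 in the arrays labelled KO and 11.31 and 11.41 in the WT arrays, so lung was present on every array. WT replicate 1 was the array least like the others. Its correlations over all probe sets were 0.976 with either array labelled KO and 0.985 with WT replicate 2. The arrays labelled KO correlated at 0.997 with each other. WT replicate 2 correlated at 0.994 with KO replicate 1 and 0.992 with KO replicate 2, so it was more like these than like WT replicate 1.

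Some of these genes carry a microRNA gene inside their bounds, and the mature sequences are shown because the hosts and their microRNA genes were measured side by side. *Mir483* lies within *Igf2* (chromosome 7) and *Mir335* within *Mest* (chromosome 6). The sequences are from RefSeq, build GRCm38.p6, with the seed, bases 2 to 8, in capitals. Each seed was held by 1 mature microRNA of the 1738 in the RefSeq table.
mmu-miR-483-5p: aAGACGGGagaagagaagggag
mmu-miR-483-3p: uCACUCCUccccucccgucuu
mmu-miR-335-5p: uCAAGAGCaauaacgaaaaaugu
mmu-miR-335-3p: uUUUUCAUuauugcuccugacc
The positions are chr7:142654968-142654989 and chr7:142654932-142654952 on the minus strand for the arms of miR-483, and chr6:30741314-30741336 and chr6:30741354-30741375 on the plus strand for those of miR-335.

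The starts of these genes differed in how rich they are in CpG, the dinucleotide at which DNA is methylated. The windows were the 250 bases before each RefSeq start in GRCm38.p6, and 8 of the 10 genes had at least 1 window, 14 in all. Their CpG counts ran between 1 and 40, where the median over all 32851 windows was 6. A window with at least 20 CpG was found for *Igf2*, *Grb10* and *Igf2r*, and 17.9% of all windows hold as many. The richest windows of *Igf2* (22 CpG, 68.8% G and C) and *Grb10* (40 CpG, 81.2% G and C) are printed 5′ to 3′ because these genes had the lowest p values of the group, with each CpG in capitals. That of *Igf2* is chr7:142658805-142659054 and that of *Grb10* chr11:12037421-12037670, both on the minus strand.
Igf2: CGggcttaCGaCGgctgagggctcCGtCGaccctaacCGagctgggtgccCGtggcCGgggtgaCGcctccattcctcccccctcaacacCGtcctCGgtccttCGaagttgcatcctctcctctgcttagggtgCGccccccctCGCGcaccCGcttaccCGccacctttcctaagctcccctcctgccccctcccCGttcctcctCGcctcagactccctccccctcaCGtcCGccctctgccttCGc
Grb10: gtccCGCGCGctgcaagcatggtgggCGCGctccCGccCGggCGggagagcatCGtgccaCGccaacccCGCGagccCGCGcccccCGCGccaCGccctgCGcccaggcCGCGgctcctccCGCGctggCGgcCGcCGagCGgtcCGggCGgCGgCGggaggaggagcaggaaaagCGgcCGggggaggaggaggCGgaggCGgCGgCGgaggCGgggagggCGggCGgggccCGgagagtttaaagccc

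The windows were also searched on both strands for TGCCGC, the hexamer that the imprint-keeping protein ZFP57 binds when it is methylated, and for GGGGCCCC, a palindrome bound by PLAGL1. TGCCGC was found in windows of *Mest* and *Plagl1* and in 8.68% of all windows. The *Mest* window held 2 matches and a further *Mest* window, shifted by a few bases, held the same ones. GGGGCCCC was found in the window of *Peg3* and in 0.889% of all windows. The motifs do not overlap, and a match describes letters only and is no evidence of binding. The windows with a match, with the motif in capitals, are chr6:30737800-30738049 on the plus strand for *Mest*, chr10:13090582-13090831 on the plus strand for *Plagl1*, and chr7:6730420-6730669 on the minus strand for *Peg3*.
Mest: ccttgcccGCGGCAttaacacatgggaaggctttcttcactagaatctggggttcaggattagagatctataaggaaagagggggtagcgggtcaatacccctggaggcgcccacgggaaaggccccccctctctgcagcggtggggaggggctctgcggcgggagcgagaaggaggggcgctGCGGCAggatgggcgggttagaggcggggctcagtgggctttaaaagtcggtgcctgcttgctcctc
Plagl1: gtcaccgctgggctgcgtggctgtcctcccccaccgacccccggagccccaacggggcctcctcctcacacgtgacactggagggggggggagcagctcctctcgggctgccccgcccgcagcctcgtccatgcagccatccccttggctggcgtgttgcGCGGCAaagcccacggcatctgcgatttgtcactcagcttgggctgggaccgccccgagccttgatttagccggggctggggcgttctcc
Peg3: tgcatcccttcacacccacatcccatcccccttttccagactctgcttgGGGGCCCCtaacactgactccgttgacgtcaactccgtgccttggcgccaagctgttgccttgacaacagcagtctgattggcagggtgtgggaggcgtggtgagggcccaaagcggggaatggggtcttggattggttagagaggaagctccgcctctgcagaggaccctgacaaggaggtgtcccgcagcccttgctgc

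None of the 9 measured genes passed the test over all genes, and the largest difference among them was that of *Igf2*, which was higher in both arrays labelled KO than in either WT array. In the arrays labelled KO the mean was higher for 6 of the 9 genes and lower for 3, where 41.2% of all genes had a higher mean. The median log2 difference was 0.14, against −0.051 over all genes. It was 0.19 against WT replicate 1 alone and 0.09 against WT replicate 2 alone. The 9 genes are bright, and between 85.4% (*Ndn*) and 99.9% (*Mest*) of all genes had a lower mean signal. Without the dimmest 40% of genes, the median over the remaining genes was 0.034. The shares over all genes given here are therefore not those of genes of like signal. Genes were tested with limma, adjusted over all 19938 genes, and 0 of the 9 genes rose or fell at an adjusted p under 0.05, where 0.0802% of all genes rose and 0.702% fell (0.782% in either direction). At an unadjusted p under 0.05, *Igf2* and *Grb10* were higher in the arrays labelled KO and 0 genes were lower. Over all genes 5.88% were higher and 8.58% were lower by that limit. At least 1.2-fold higher were *Igf2*, *Grb10* and *Ndn*, and 0 genes were at least 1.2-fold lower, where 13.4% of all genes were higher and 17.1% lower by that limit (30.5% in all). Both arrays labelled KO lay above both WT arrays for *Igf2*, *Peg3*, *Plagl1* and *Grb10*, and 17.6% of all genes were separated in this direction. Below both WT arrays lay 0 of the 9 genes and 31.8% of all genes, so that the groups were apart for 4 of the 9 genes and for 49.4% of all genes. An exact permutation test of 2 arrays against 2 can give no two-sided p below 0.333.

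By the parental copy that is active in most tissues, 5 of the 7 measured paternally expressed genes had a higher mean in the arrays labelled KO, and the mean was lower for 2. Of the 2 measured maternally expressed genes, *Grb10* was higher on average and *Igf2r* lower. Over all genes 41.2% had a higher mean. These counts go by sign alone, and *Dlk1* counts as lower at −0.0037. Without WT replicate 1 the signs of *Dlk1* (0.01), *Mest* (−0.013) and *Igf2r* (0.08) turned. For each of the 9 genes the WT arrays lay further apart than the arrays labelled KO. The median gap was 0.035 between the arrays labelled KO and 0.24 between the WT arrays, where over all genes it was 0.12 and 0.20.

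**Figure D1:**
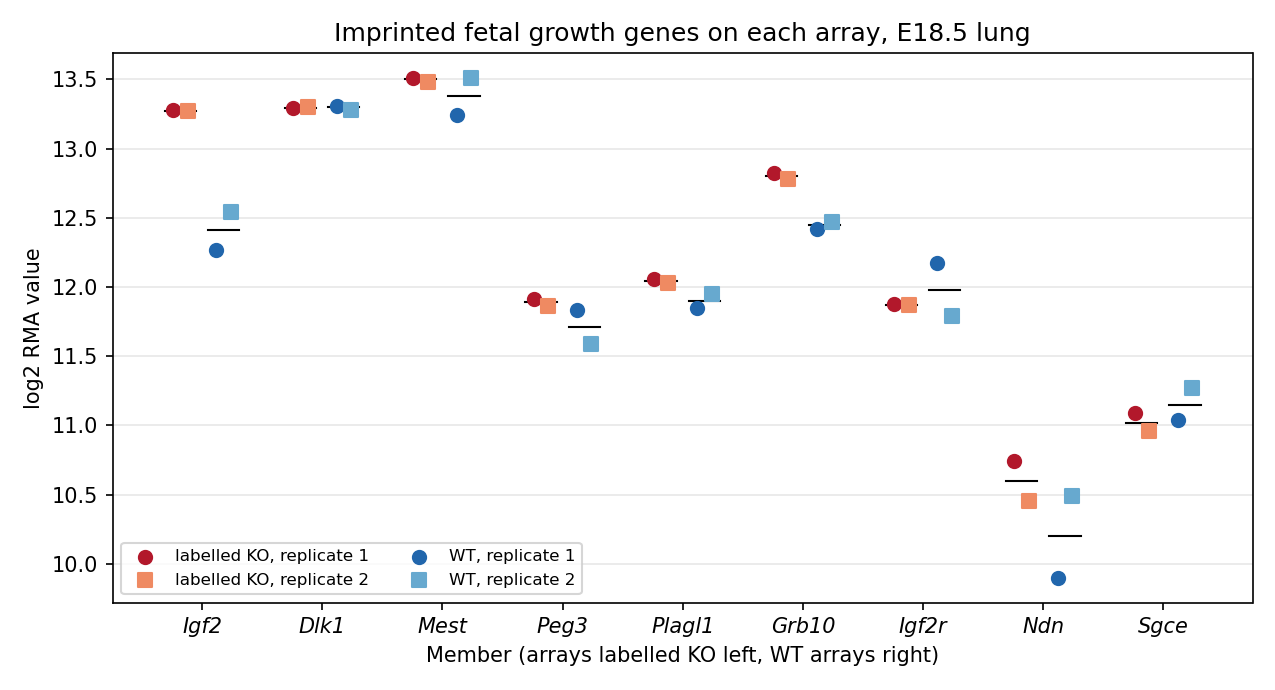
Log2 RMA value of each measured imprinted growth gene (x axis) on each array (y axis), with arrays labelled KO to the left of the WT arrays and a line at each mean. *Igf2* had 13.28 and 13.27 in the arrays labelled KO and 12.27 and 12.54 in the WT arrays, while the *Dlk1* points lie together near 13.3.

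The growth factor *Igf2* had the largest difference of the 9 genes. Its log2 values (probe set 10569344) were 13.28 and 13.27 in the arrays labelled KO, against 12.27 and 12.54 in the WT arrays. Both arrays labelled KO were high and nearly equal, WT replicate 1 was the lowest, and the groups did not overlap. The means were 13.27 ± 0.01 in the arrays labelled KO and 12.41 ± 0.193 in the WT arrays (SD, n = 2 each). The difference was 0.87 (standard error 0.15, 95% interval 0.52 to 1.22), or 1.82-fold, with an adjusted p of 0.0656 from limma. It was 1.0 against WT replicate 1 alone and 0.73 against WT replicate 2 alone. The adjusted p from limma ran from 2.25e-09 to 0.936 over the alternatives, and it was under 0.05 with median centring of the arrays (0.0422), cyclic loess (0.0361), the dimmest 40% of genes left out (0.0388) and a variance trend with robust fitting (0.0240). Leaving out WT replicate 1 gave 9.35e-05 and leaving out WT replicate 2 gave 2.25e-09, where the lone WT array was assumed to vary like the other group, and leaving out an array labelled KO gave 0.752 or 0.936. Of all genes, 8.22% were called without WT replicate 1 and 31.6% without WT replicate 2, against 0.00502% without KO replicate 1 and 0% without KO replicate 2.

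*Igf2r* encodes the receptor that binds IGF2 and carries it to the lysosome for breakdown, and it is active on the maternal copy. It had 11.88 and 11.87 in the arrays labelled KO, against 12.17 and 11.79 in the WT arrays. The arrays labelled KO lay between the WT arrays, so the groups overlapped. The difference was −0.11 (standard error 0.16, 95% interval −0.49 to 0.28, limma adjusted p = 0.769), with −0.29 against WT replicate 1 alone and 0.08 against WT replicate 2 alone, so its sign rested on WT replicate 1.

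*Grb10* encodes an adaptor protein that binds the insulin and IGF1 receptors and dampens their signal, and it is maternally expressed in most tissues. It had 12.82 and 12.78 in the arrays labelled KO, against 12.42 and 12.47 in the WT arrays. The arrays of each group lay close together and the groups did not overlap. The difference was 0.36 (standard error 0.12, 95% interval 0.057 to 0.66), or 1.28-fold, with an adjusted p of 0.274 from limma. The single WT arrays gave 0.38 and 0.33.

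*Plagl1* and *Peg3* are paternally expressed and encode zinc finger proteins, and PLAGL1 is known as a regulator of a network of imprinted genes that includes *Igf2*. *Plagl1* had 12.06 and 12.03 in the arrays labelled KO, against 11.85 and 11.95 in the WT arrays. Its groups did not overlap, although the nearest arrays were close, and the difference was 0.14 (standard error 0.13, 95% interval −0.17 to 0.45, limma adjusted p = 0.614). *Peg3* had 11.91 and 11.86 in the arrays labelled KO, against 11.83 and 11.59 in the WT arrays. Here WT replicate 2 was the low array, and the difference of 0.18 (standard error 0.14, 95% interval −0.16 to 0.52, limma adjusted p = 0.574) was 0.057 against WT replicate 1 alone and 0.30 against WT replicate 2 alone.

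*Ndn*, paternally expressed, encodes necdin, a protein of the MAGE family known for restraining the cell cycle in neurons. It had 10.74 and 10.45 in the arrays labelled KO, against 9.90 and 10.49 in the WT arrays. WT replicate 1 was low, WT replicate 2 lay within the range of the arrays labelled KO, and the groups overlapped. The difference was 0.40 (standard error 0.22, 95% interval −0.13 to 0.93), or 1.32-fold, with an adjusted p of 0.444 from limma, and it was 0.69 against WT replicate 1 alone and 0.11 against WT replicate 2 alone.

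*Dlk1* encodes a membrane protein with EGF-like repeats that is related to the Notch ligands and keeps progenitor cells, such as preadipocytes, from maturing. It was nearly the same on every array, with 13.29 and 13.30 in the arrays labelled KO and 13.31 and 13.28 in the WT arrays. The groups overlapped, and the difference was −0.0037 (standard error 0.12, 95% interval −0.30 to 0.29, limma adjusted p = 0.992). *Mest*, which encodes an enzyme-like protein of the alpha/beta hydrolase family named for mesoderm-specific expression, had 13.51 and 13.48 in the arrays labelled KO and 13.24 and 13.51 in the WT arrays. WT replicate 1 was the low array and the groups overlapped. Its difference was 0.12 (standard error 0.14, 95% interval −0.23 to 0.47, limma adjusted p = 0.706) and turned to −0.013 against WT replicate 2 alone. *Sgce*, which encodes a sarcoglycan of the cell membrane, had 11.09 and 10.96 in the arrays labelled KO and 11.04 and 11.27 in the WT arrays. WT replicate 2 was the highest array, the groups overlapped, and the difference was −0.13 (standard error 0.14, 95% interval −0.47 to 0.22, limma adjusted p = 0.690).

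**Figure D2:**
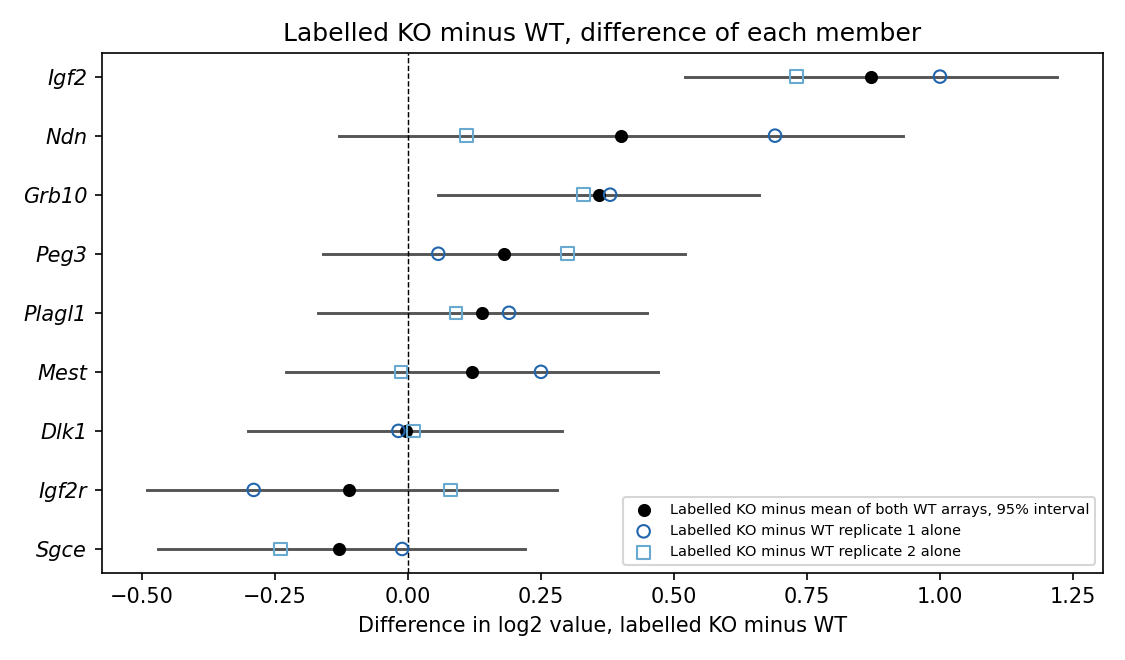
Log2 difference, arrays labelled KO minus WT (x axis), of each measured imprinted growth gene (y axis), with its 95% interval from limma (bars) and the difference against each WT array alone (open symbols). *Igf2* (0.87) and *Grb10* (0.36) are the genes whose bar lies wholly above 0, and the open symbols of *Ndn* lie far apart (0.69 and 0.11).

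The neighbours that share an imprinted domain with these genes were spread to both sides of 0, and none passed the test. Of 16 listed neighbours 13 were measured. In the arrays labelled KO the mean was higher for 4 of them and lower for 9, and the median of the log2 differences was −0.16. Here 0 rose and 0 fell at an adjusted p under 0.05. At an unadjusted p under 0.05 from limma, *Peg10* was higher and *Meg3* and *Cobl* lower. By that limit 5.88% of all genes were higher and 8.58% lower. *Mirg*, *Snrpn* and *Ube3a* had only probe sets with several symbols and were not analysed here.

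In the domain of *Sgce*, *Peg10*, a paternally expressed gene derived from a retrotransposon that is needed for the placenta, had 10.23 and 10.14 in the arrays labelled KO, against 9.56 and 9.52 in the WT arrays. Its groups did not overlap and its difference of 0.64 (standard error 0.13, 95% interval 0.34 to 0.95), or 1.56-fold, had an adjusted p of 0.0912 from limma. *Ppp1r9a*, which encodes the actin-binding protein neurabin, had 8.87 and 8.63 in the arrays labelled KO, against 9.64 and 8.81 in the WT arrays, so WT replicate 1 was high and the groups overlapped, with a difference of −0.47 (limma adjusted p = 0.457). *Asb4*, an ankyrin repeat gene, had 7.99 and 7.81 in the arrays labelled KO, against 6.97 and 7.79 in the WT arrays. Its low array was WT replicate 1, and the difference was 0.52 (limma adjusted p = 0.418).

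In the domain of *Dlk1*, the maternally expressed noncoding RNAs had high values in WT replicate 1. *Meg3* had 10.84 and 10.79 in the arrays labelled KO, against 12.66 and 11.23 in the WT arrays, and its groups did not overlap. The difference of −1.13 (standard error 0.42, limma adjusted p = 0.299) was −1.85 against WT replicate 1 alone and −0.42 against WT replicate 2 alone. *Rian* had 7.21 and 6.87 in the arrays labelled KO, against 9.48 and 6.95 in the WT arrays, so the groups overlapped and the difference of −1.18 (standard error 0.72, limma adjusted p = 0.481) turned to 0.085 against WT replicate 2 alone. *Rtl1*, a paternally expressed gene derived from a retrotransposon, had 7.30 and 7.14 in the arrays labelled KO and 7.49 and 7.27 in the WT arrays, a difference of −0.16.

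*Airn*, the long noncoding RNA made from the paternal copy across *Igf2r*, had 11.23 and 11.14 in the arrays labelled KO, against 12.28 and 11.33 in the WT arrays. WT replicate 1 was again the high array, the groups did not overlap, and the difference of −0.62 (standard error 0.29, limma adjusted p = 0.394) was −1.09 against WT replicate 1 alone and −0.15 against WT replicate 2 alone. *Airn* overlaps *Igf2r*, and *Copg2*, a coatomer gene, overlaps *Mest*, so which of them a probe reports rests on the array's annotation. *Copg2* had 11.09 and 11.01 in the arrays labelled KO and 10.92 and 11.09 in the WT arrays, a difference of 0.048.

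The remaining neighbours had log2 differences between −0.34 and 0.18. In the domain of *Peg3*, *Usp29*, a gene of the ubiquitin protease family, had 6.19 and 6.18 in the arrays labelled KO and 5.97 and 6.03 in the WT arrays, a difference of 0.18. *Zim1*, a zinc finger gene of the same domain, had 9.31 and 9.10 in the arrays labelled KO and 9.48 and 9.03 in the WT arrays, a difference of −0.052. *Magel2*, a neighbour of *Ndn*, had 7.01 and 7.09 in the arrays labelled KO and 7.23 and 7.21 in the WT arrays, a difference of −0.17. The groups of *Usp29* and *Magel2* did not overlap, and those of *Zim1* did. Beside *Grb10*, *Cobl*, an actin nucleator, had 9.12 and 9.06 in the arrays labelled KO and 9.55 and 9.31 in the WT arrays, a difference of −0.34 (standard error 0.14, limma adjusted p = 0.345). *Ddc*, the enzyme that makes dopamine and serotonin, had 8.06 and 7.79 in the arrays labelled KO and 7.81 and 8.34 in the WT arrays, a difference of −0.15.

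In the arrays labelled KO the microRNA genes were lower on average, where their hosts were higher, although for *Mest* that sign rested on WT replicate 1. The *Mir483* probe set had 7.91 and 7.97 in the arrays labelled KO, against 8.32 and 8.02 in the WT arrays, a difference of −0.23 (standard error 0.15, limma adjusted p = 0.501), where *Igf2* had 0.87. The *Mir335* probe set had 5.87 and 5.53 in the arrays labelled KO, against 6.56 and 5.84 in the WT arrays, a difference of −0.50 (standard error 0.26, limma adjusted p = 0.420), where *Mest* had 0.12. Neither passed the test, both were highest in WT replicate 1, and the difference between host and microRNA gene was not tested. Which part of the microRNA transcripts these probe sets report is not stated, so the values are not those of the mature sequences printed above.

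**Figure D3:**
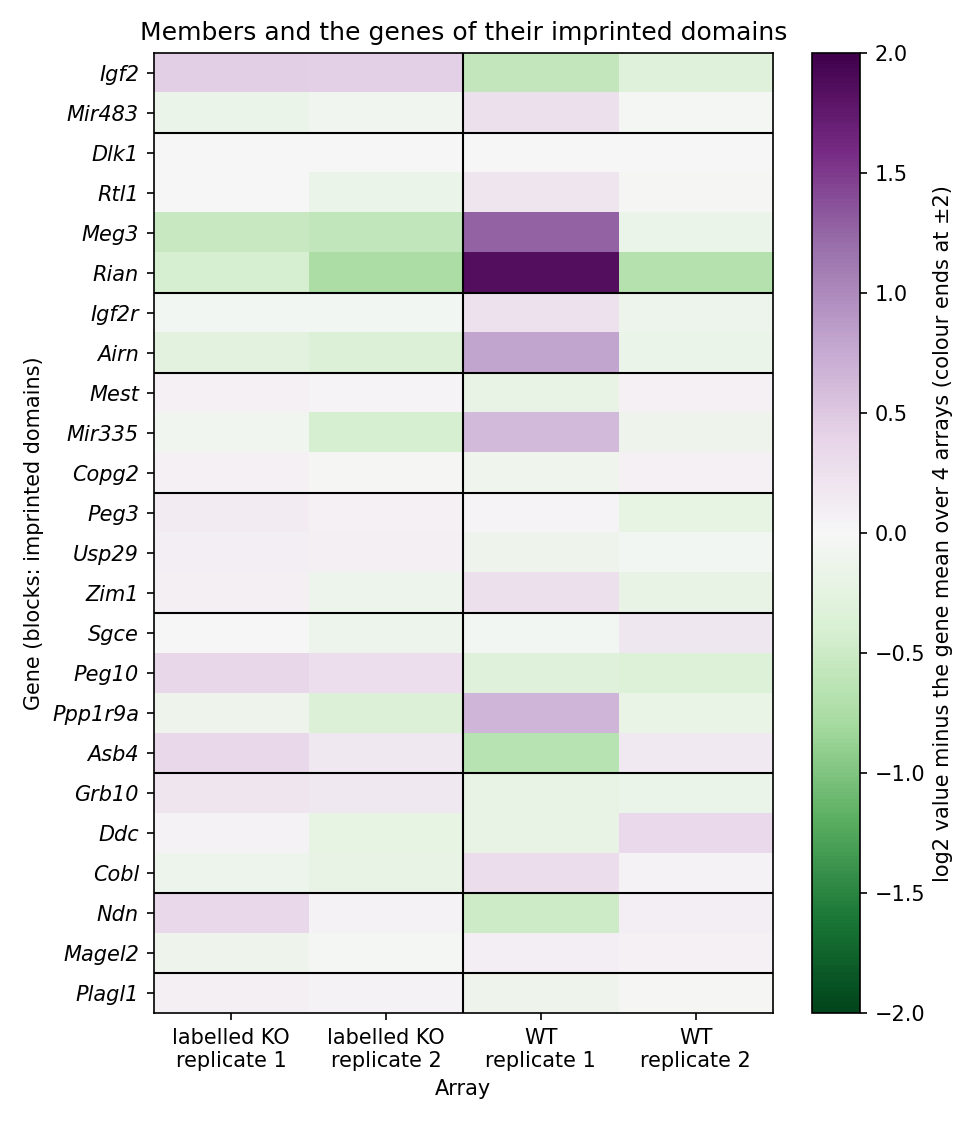
Deviation of the log2 value from the mean of that gene on the 4 arrays (colour) for the measured imprinted growth genes, their domain neighbours and hosted microRNA genes (rows, in blocks by domain) on each array (columns). *Meg3*, *Rian* and *Airn* are high in WT replicate 1, and *Igf2* is higher in both arrays labelled KO than in either WT array.

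Beyond these domains, a list of 57 other imprinted genes, which also holds the domain neighbours, had 47 measured genes. Whether each gene of the list is imprinted in lung was not tested. In the arrays labelled KO the mean was higher for 20 and lower for 27, and the median of the log2 differences was −0.049. Among them 1 gene rose and 1 fell at an adjusted p under 0.05, where 0.0802% of all genes rose and 0.702% fell. *Dcn*, which encodes the matrix proteoglycan decorin, rose, with 11.91 and 11.70 in the arrays labelled KO against 10.51 and 10.83 in the WT arrays, a difference of 1.13 (standard error 0.16, limma adjusted p = 0.0455). *Pon3*, a paraoxonase that lies near *Sgce* and *Peg10*, fell, with 10.62 and 10.33 in the arrays labelled KO against 11.53 and 11.56 in the WT arrays, a difference of −1.07 (standard error 0.15, limma adjusted p = 0.0399). Without KO replicate 1 or KO replicate 2 the differences were of like size, 1.03 and 1.24 for *Dcn* and −1.22 and −0.93 for *Pon3*, but neither call was kept (adjusted p from limma 0.669 and 0.861 for *Dcn*, 0.507 and 0.927 for *Pon3*), in settings that called 0.00502% and 0% of all genes. Without WT replicate 1 or WT replicate 2 both calls were kept, at 2.97e-08 and 4.01e-15 for *Dcn* and 3.27e-10 and 2.65e-10 for *Pon3*, in settings that called 8.22% and 31.6% of all genes. *Slc38a4*, an amino acid transporter, had 11.13 and 11.02 in the arrays labelled KO against 9.55 and 10.45 in the WT arrays, a difference of 1.08 (standard error 0.28, limma adjusted p = 0.164) that was 1.53 against WT replicate 1 alone and 0.63 against WT replicate 2 alone. *Cdkn1c*, a cyclin-dependent kinase inhibitor named after its values were seen, had 11.33 and 11.43 in the arrays labelled KO against 10.78 and 11.02 in the WT arrays, a difference of 0.48 (standard error 0.14, limma adjusted p = 0.208).

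The profile of the 9 genes over the arrays was the mean of their log2 values after each gene's own mean was taken away. It was 0.13 and 0.069 in the arrays labelled KO and −0.15 and −0.053 in the WT arrays. The values were not scaled, so *Igf2*, with the largest difference of the 9 genes, weighed most in it. The imprinted genes with the nearest profile by Euclidean distance over the 4 arrays were *Usp29* (distance 0.0517), *Dio3*, a thyroid hormone deiodinase (0.126), and *Inpp5f*, an inositol phosphatase (0.158). *Dio3* had 6.63 and 6.49 in the arrays labelled KO and 6.38 and 6.54 in the WT arrays. *Inpp5f* had 8.39 and 8.19 in the arrays labelled KO and 8.18 and 8.23 in the WT arrays. The groups of *Dio3* and of *Inpp5f* overlapped.

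The IGF system, in which IGF2 acts, comprises the ligands, their receptors and the binding proteins that hold IGFs in the extracellular space. All 22 listed genes were measured, and the list also holds genes outside these classes, such as *Irs1*, *Shc1*, *Ghr*, *Pappa* and *Igf2bp1*. In the arrays labelled KO the mean was higher for 13 and lower for 9, and the median of the log2 differences was 0.049. None passed limma's test (0 genes), and an unadjusted p under 0.05 was found for 4 higher and 3 lower genes. By that limit 5.88% of all genes were higher and 8.58% lower. The binding protein genes had differences of both signs. *Igfbp2* had 10.02 and 9.90 in the arrays labelled KO against 8.06 and 9.02 in the WT arrays, a difference of 1.42 (standard error 0.30, limma adjusted p = 0.106) that was 1.90 against WT replicate 1 alone and 0.94 against WT replicate 2 alone. *Igfbp5* had 11.72 and 11.56 in the arrays labelled KO against 10.89 and 11.14 in the WT arrays, a difference of 0.63 (standard error 0.15, limma adjusted p = 0.137). *Igfbp6*, which binds IGF2 in preference to IGF1, had 9.11 and 8.99 in the arrays labelled KO against 9.89 and 10.31 in the WT arrays, a difference of −1.05 (standard error 0.17, limma adjusted p = 0.0628). *Igfbp7*, a related secreted protein, had 12.20 and 12.11 in the arrays labelled KO against 12.56 and 12.83 in the WT arrays, a difference of −0.54 (standard error 0.15, limma adjusted p = 0.178). These 4 genes were named for their small p, and their groups did not overlap, as for 49.4% of all genes, while the groups of *Igfbp1* and *Igfbp4* overlapped. The adjusted p of *Igfbp6* was 0.0352 with median centring, 0.0265 with cyclic loess and 0.0322 without the dimmest 40% of genes, that of *Igfbp2* was 0.0443 in the last of these settings, and over all alternatives they ran from 9.30e-14 to 0.936 and from 3.29e-32 to 0.936.

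The other IGF ligand, *Igf1*, and the receptors were named after their values were seen. *Igf1* had 11.14 and 11.00 in the arrays labelled KO against 10.66 and 10.82 in the WT arrays, a difference of 0.33 (standard error 0.14, limma adjusted p = 0.345). The receptor *Igf1r* had 10.57 on either array labelled KO, against 11.12 and 10.62 in the WT arrays, a difference of −0.30 (standard error 0.18, limma adjusted p = 0.485). *Insr*, the insulin receptor, had 10.35 on either array labelled KO, against 10.95 and 10.56 in the WT arrays, a difference of −0.41 (standard error 0.16, limma adjusted p = 0.334). The ligand *Igf1* had a higher mean in the arrays labelled KO, both receptors had lower means, and no difference passed the test. The difference of *Igf1r* was −0.54 against WT replicate 1 alone and −0.051 against WT replicate 2 alone, and that of *Insr* was −0.60 and −0.21. *Igf2bp1*, which encodes a protein that binds *Igf2* RNA, was also named after its values were seen. It had 9.62 and 9.53 in the arrays labelled KO against 8.74 and 9.20 in the WT arrays, a difference of 0.61 (limma adjusted p = 0.208). *Igf2bp3*, of the same list, had a difference of 0.40 (limma adjusted p = 0.373), and *Igf2bp2* was not on the list.

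**Figure D4:**
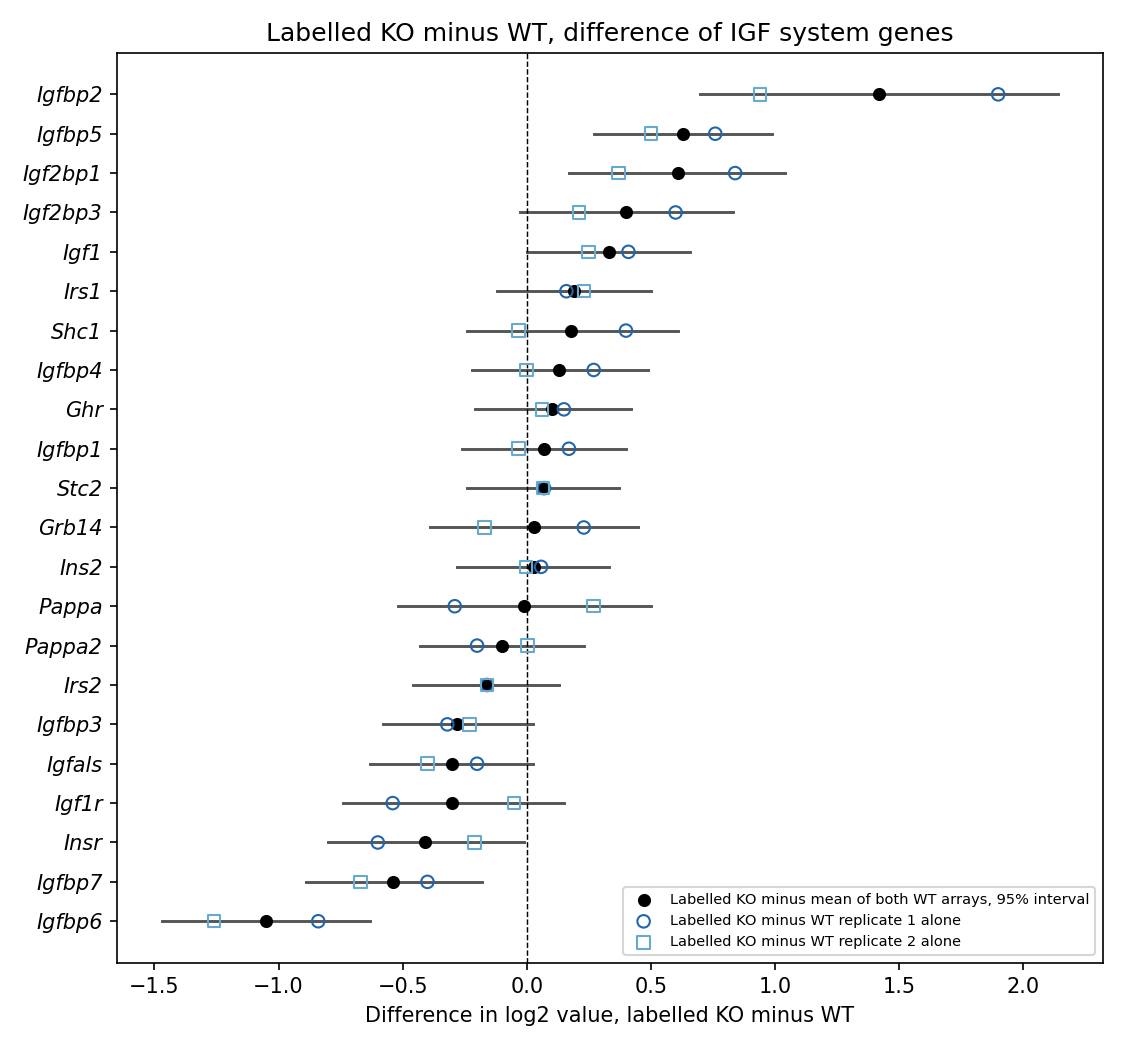
Log2 difference, arrays labelled KO minus WT (x axis), of the 22 genes of the IGF system (y axis), with the 95% interval from limma (bars) and the difference against each WT array alone (open symbols). The binding protein genes lie at both ends, *Igfbp2* at 1.42 and *Igfbp6* at −1.05.

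Markers of the cells in the lung differed between the same arrays, and their part in the values above was not tested. In RNA from whole tissue, fewer cells of a type and less RNA per cell cannot be told apart. All 14 measured genes of the proliferation list had a higher mean in the arrays labelled KO. Their median difference was 0.99 (1.44 against WT replicate 1 alone, 0.61 against WT replicate 2 alone). Of these genes 0 passed the test and 14 had an unadjusted p under 0.05 from limma. By that unadjusted limit 5.88% of all genes were higher and 8.58% lower. At an adjusted p under 0.05, 0.0802% of all genes rose and 0.702% fell. Mesenchymal markers, from the cells that make most *Igf2*, had means on both sides, higher for 7 of 12, with a median of 0.039 and summed linear signals of 52400 and 51900 in the arrays labelled KO against 57500 and 55600 in the WT arrays. Of these, *Lum*, a matrix proteoglycan, rose by 2.05, and *Fn1*, fibronectin, had a difference of −0.68 (limma adjusted p = 0.168). Of 12 epithelial markers 9 had a lower mean and 4 (*Sftpd*, *Aqp5*, *Lamp3* and *Sftpa1*) fell, with sums of 48700 and 48200 in the arrays labelled KO against 70200 and 68200 in the WT arrays. Endothelial markers had a lower mean in 7 of 8 cases, with sums of 27700 and 26300 in the arrays labelled KO against 33300 and 34600 in the WT arrays. The 7 measured blood cell markers all had a lower mean, with a median difference of −0.43, and 1 of them, *Lyz2*, fell. The sums were 4590 and 4280 in the arrays labelled KO against 11800 and 10900 in the WT arrays. *Lyz2* weighed most in these sums, with 11.40 and 11.32 in the arrays labelled KO against 13.23 and 13.01 in the WT arrays. Of 8 heart muscle markers 6 had a higher mean, 1 of them, *Nppa*, rose, and the sums were 17200 and 15200 in the arrays labelled KO against 11500 and 10100 in the WT arrays. The 3 measured red cell markers had a median of −0.10 and the 6 markers of other fetal tissues one of −0.16, and 0 of either list passed the test. No marker list had a defining gene at 0, since the log2 values have no true zero.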

How the data were processed

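RNA of 2 KO and 2 WT lung samples was measured on 1 array each. Values for 30177 probe sets were used as deposited, on the log2 scale. For these the authors ran RMA (Affymetrix Expression Console, according to the submitters' processing notes, which give no versions). RMA subtracts background, equalises the distributions of the arrays and combines probes, so most of any global shift between arrays is removed. The medians of the deposited values were 8.02 and 7.91 in the arrays labelled KO and 7.99 and 8.02 in the WT arrays. No annotation release or genome build of the array is named. The platform annotation gives 1 symbol for 21789 probe sets, several for 1621 and none for 6767, and the brightest of several stood for a gene.

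Arrays were grouped by their labels. The 19938 genes were fitted with limma 3.58.1 in R 4.3.3 (lmFit, eBayes, 2 residual and 4.42 prior degrees of freedom, Benjamini and Hochberg's adjustment, threshold 0.05). The code was tested on simulated data. Members and lists were chosen with earlier results of these data known. Named were all members, their measured neighbours and microRNA genes, *Hmga2*, and of other imprinted and IGF system genes those that passed, the 4 with the smallest p, up to 2 with the largest difference each way and the 3 nearest in profile. Same-numbered arrays did not deviate together (correlation of deviations −0.238). Alternatives were median centring, cyclic loess, leaving out the dimmest 40%, the mean of all probe sets, trend with robust fitting, the replicate number as a block and leaving out each array.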

Additional observations from a re-analysis of the deposited data

How the results depend on the processing

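Leaving out 1 array leaves a lone array that is assumed to vary like the other group, and such counts hold no spread within it. The 156 genes called over all genes (16 higher and 140 lower) became 294 with median centring (73 higher and 221 lower), 335 with cyclic loess (70 and 265), 301 without the dimmest 40% of genes, and 0 to 6292 without 1 array. Of the imprinted growth genes 0 were called, and 1, *Igf2*, with median centring, cyclic loess, the dim genes left out, and trend with robust fitting, settings that called 1.47%, 1.68%, 2.52% and 0.983% of all genes, and 0 to 3 without 1 array. The 3 (*Igf2*, *Grb10* at 0.0455 and *Ndn* at 7.59e-05, adjusted p from limma) arose without WT replicate 2, where 31.6% of all genes were called. In the other settings the adjusted p ran from 0.155 to 0.937 for *Grb10* and from 0.338 to 0.941 for *Ndn*, whose difference was 0.11 without WT replicate 1. The median of the imprinted growth genes, 0.14, was 0.06 with cyclic loess and 0.09 to 0.19 without 1 array. Over all genes the median was −0.051, and it was 0.0023 with cyclic loess and 0.034 without the dimmest 40% of genes. Without WT replicate 1, *Dlk1* was 0.01, *Mest* −0.013 and *Igf2r* 0.08, and without WT replicate 2 they were −0.018, 0.25 and −0.29. The 2 other imprinted genes called became 0 to 19 without 1 array, and their median of −0.049 ran from −0.12 to 0.088, with 0.051 without KO replicate 2 and 0.088 without WT replicate 2. The 0 IGF system genes called became 1 with median centring and 1 with cyclic loess (*Igfbp6*), 2 without the dim genes (*Igfbp6* and *Igfbp2*) and 0 to 10 without 1 array. Their median of 0.049 ran from −0.0015 (without WT replicate 1) to 0.11.

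The arrays share only a replicate number, and with the replicate number as a block 602 genes were called (3.02%), of which 1 was an imprinted growth gene (*Igf2*, adjusted p = 0.0297 from limma), 4 were other imprinted genes (*Dcn* at 0.0106, *Pon3* at 0.0112, *Slc38a4* at 0.0270 and *Meg3* at 0.0399) and 2 were IGF system genes (*Igfbp2* at 0.00796 and *Igfbp6* at 0.0160). A crossed pairing of the numbers, added after the values were seen, called 512 genes. *Mir335* has no value without the dimmest genes.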
